A study of Mus musculus with 16 samples.

Results

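Immediate-early genes are transcribed within minutes of neuronal firing or growth factor signals, without the need for new protein synthesis. Calcium entry and MAP kinase signaling activate the transcription factors CREB and SRF at their promoters, and the transcripts are short-lived, so that their level follows recent activity of the tissue. The 10 genes described here were listed by name as activity-dependent immediate-early genes. No value was a criterion of the list, but earlier results of these data were known when it was made. They encode AP-1 subunits (Fos, Fosb, Junb), zinc finger transcription factors (Egr1, Egr2), a neuron-restricted transcription factor (Npas4), an orphan nuclear receptor (Nr4a1), a synaptic protein of the postsynaptic density (Arc), a nuclear regulator of transcription (Ier2) and a phosphatase that switches off MAP kinases (Dusp1). All 10 were found by their symbol among the 36930 entries of the table, and all 10 passed the filter on low values, which required a log2 value above -5 in at least 12 of 16 pups and left 21183 genes.

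Cortices of C57BL6 mice were sequenced at P7, 8 from Avil-ChR2 and 8 from ChR2-flfl pups. Avil-ChR2 pups carry Cre recombinase under the advillin promoter, which is active in peripheral sensory neurons, and a channelrhodopsin-2 (ChR2)/tdTomato fusion behind a loxP-flanked stop cassette at Rosa26. ChR2-flfl litter mates carry the same floxed allele without Cre and served as controls. All pups of both genotypes were placed in blue light together with their Cre-negative mother for 1 h daily from P1 to P5, so that tissue was taken 2 days after the last exposure. The question was whether the genes differed between genotypes at this time, and how far they varied together among pups. No group without light exposure was analysed here. The labels name no litters, but the pup numbers form 2 runs, 26 to 33 and 35 to 42, and each run holds 4 Avil-ChR2 and 4 ChR2-flfl pups. These runs were compared as well, since the labels do not say what divides them. The sex of Avil-ChR2 replicate 4 is female in the labels and male in the study's sample list. Values are normalized reads (CPM, reads of a gene scaled to a common library size) on a linear scale. The reads per pup were between 30549126 (ChR2-flfl replicate 3) and 48711134. As a check of the labels, Avil itself was between 37.3 and 46.4 CPM in Avil-ChR2 cortices and between 0.825 and 1.46 CPM in controls. The genotypes did not overlap. Neuron markers summed to between 7409 and 7746 CPM in all 16 pups. In bulk tissue, fewer cells of a type and less RNA per cell cannot be told apart.

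The upstream sequences of Fos, Junb and Nr4a1 are shown partly because Junb and Nr4a1 each belong to a pair of genes that varied together. The sequences also hold the letters of the CRE half-site, an element through which calcium and cAMP can act on a gene. They are the 250 bases before a RefSeq transcription start on GRCm38.p6, written 5′ to 3′ in the direction of transcription. Capitals mark the letters TGACG or CGTCA, the half-site on either strand. The windows are chr12:85473640-85473889 on the plus strand (Fos), chr8:84978749-84978998 on the minus strand (Junb) and chr15:101266596-101266845 on the plus strand (Nr4a1). The Nr4a1 window lies inside the deposited entry of the gene, which starts at base 101254213. It therefore precedes a start within the gene and not the first one.
Fos: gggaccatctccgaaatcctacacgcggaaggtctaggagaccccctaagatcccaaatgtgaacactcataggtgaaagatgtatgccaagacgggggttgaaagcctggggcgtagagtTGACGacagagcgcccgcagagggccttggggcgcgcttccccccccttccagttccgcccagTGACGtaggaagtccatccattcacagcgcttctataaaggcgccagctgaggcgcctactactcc
Junb: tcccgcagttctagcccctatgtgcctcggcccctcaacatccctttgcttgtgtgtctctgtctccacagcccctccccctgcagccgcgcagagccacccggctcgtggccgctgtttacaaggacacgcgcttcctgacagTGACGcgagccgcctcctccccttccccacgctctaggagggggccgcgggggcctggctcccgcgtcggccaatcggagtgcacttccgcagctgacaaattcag
Nr4a1: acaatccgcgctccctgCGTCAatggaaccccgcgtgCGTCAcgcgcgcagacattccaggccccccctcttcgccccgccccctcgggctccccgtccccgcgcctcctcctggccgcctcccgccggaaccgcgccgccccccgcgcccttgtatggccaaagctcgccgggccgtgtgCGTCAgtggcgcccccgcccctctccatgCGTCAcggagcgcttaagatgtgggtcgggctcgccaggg
Windows were at hand for 7 of the 10 genes (Fos, Fosb, Junb, Egr2, Npas4, Nr4a1 and Dusp1), and each of the 7 held at least 1 half-site, Egr2 in 3 of its 5 windows. Among all 32851 windows of the same length, 17.8% held one. Nr4a1 had 4 half-sites, the nearest ending 36 bases before the start used here, and Npas4 had 2, at 179 to 175 and 169 to 165 bases before its start. Fos and Dusp1 also had 2, as did 3 of the 5 Egr2 windows, whereas Fosb and Junb had 1. Of all windows, 2.74% held 2 or more. The Npas4 window lies within the first exon of a longer GENCODE transcript and is therefore not printed. The full palindrome TGACGTCA was found in the Dusp1 window only, against 1.55% of all windows, and a CArG box, the SRF element, in 4 of the 5 Egr2 windows, some of which overlap each other, against 1.47% of all windows. Bases farther than 250 from a start were not searched, and Egr1, Arc and Ier2 had no window. Elements there would have been missed. A match of letters is a description and does not show that a factor was bound.

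All 10 genes were expressed in cortices of both genotypes. Per kilobase of the longest GENCODE transcript, Nr4a1 (mean 10.2 CPM per kb, range over 16 pups 9.05 to 12.4) and Egr1 (8.09, 5.94 to 9.31) were highest. The longest Egr1 transcript (4484 bp) exceeds the span of its deposited entry (3750 bp). The value of Egr1 per kilobase is therefore likely too low, and the order of Nr4a1 and Egr1 is not settled. Junb (3.14, 1.81 to 4.56), Npas4 (3.06, 2.69 to 3.57), Dusp1 (2.97, 2.49 to 3.25) and Ier2 (2.48, 1.73 to 3.30) followed with overlapping ranges, then Arc (1.76, 1.36 to 2.47) and Fos (1.23, 0.989 to 1.68), and Egr2 (0.663, 0.507 to 0.863) and Fosb (0.137, 0.0545 to 0.222) were lowest. In this order Egr1 and Junb did not overlap in their ranges, nor did Fos and Egr2 or Egr2 and Fosb, whereas all other neighbours overlapped. The deposited Npas4 entry on chr19:4984353-5001925 spans 17573 bp and contains a further GENCODE transcript of the same strand, and the start of the Egr2 entry overlaps Gm32255 on the other strand, so that reads of these neighbours may be included. Fosb rested on a median of 25.5 reads per pup, Egr2 on 92, whereas Egr1 rested on 1740.

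**Figure D1:**
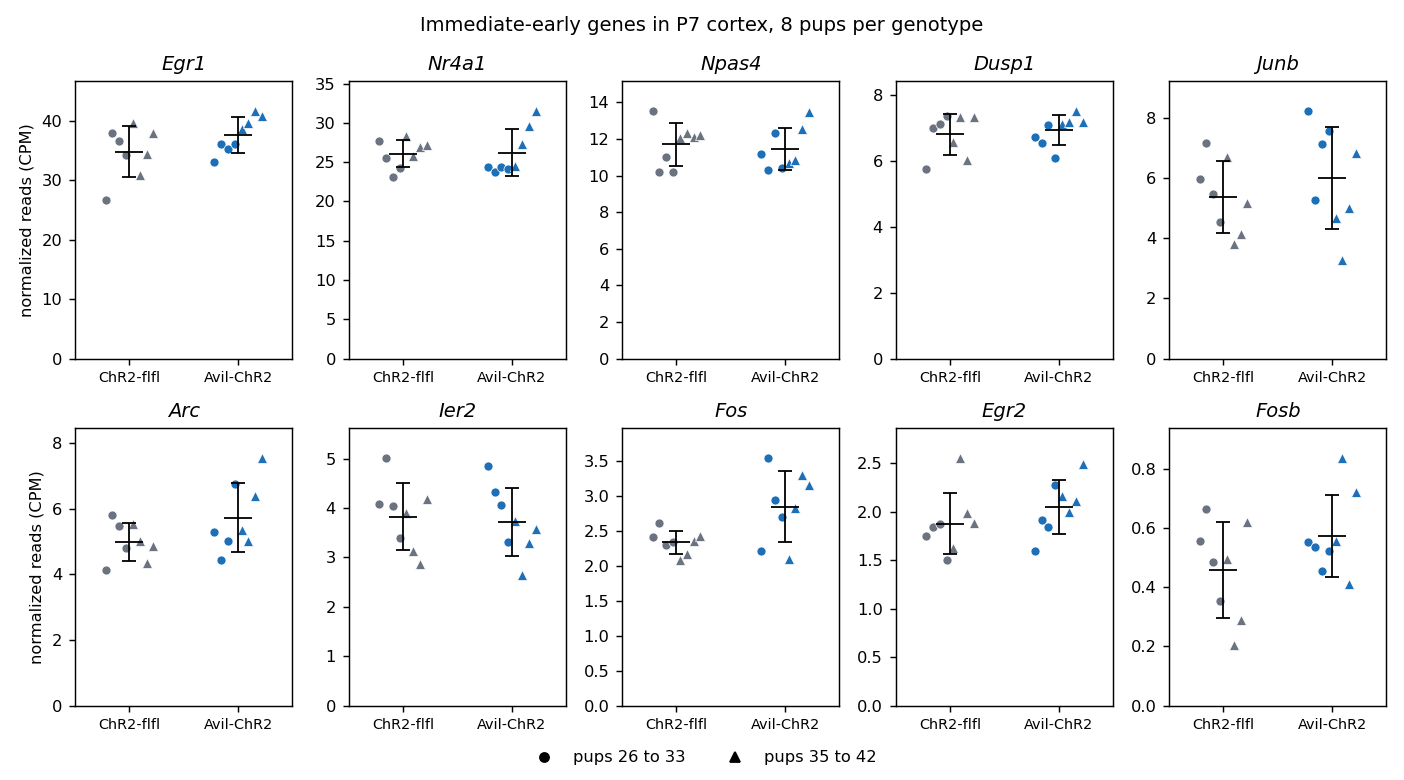
Normalized reads (CPM, linear axis from 0) of each gene in every pup, with ChR2-flfl in grey and Avil-ChR2 in blue, circles for pups 26 to 33 and triangles for pups 35 to 42. Horizontal lines are means and bars are SD (n = 8). The genotypes overlapped for each of the 10 genes, and for Fos 6 of 8 Avil-ChR2 values exceed the highest control.

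None of the 10 genes differed between genotypes after adjustment over all genes (limma, adjusted p under 0.05), against 2 of 21183 genes in all (0.00944%). Fos had the lowest p. In ChR2-flfl cortices Fos was between 2.08 and 2.61 CPM with a median of 2.34. In Avil-ChR2 cortices it was between 2.10 and 3.54 CPM with a median of 2.88. Of the 8 Avil-ChR2 pups, 6 were above the highest control and the other 2, replicates 1 and 5, were in the lower part of the control range. The log2 difference was 0.27 (95% interval 0.05 to 0.48, two-sided exact permutation p = 0.0207). It did not pass adjustment over all genes (limma, adjusted p = 0.841), and 5.41% of all genes had an unadjusted p under 0.05, as did 1 of the 10 genes. The difference of Fos was positive in either run of pup numbers, 0.22 in the lower and 0.32 in the higher numbers. The SD of Fos on the log2 scale was 0.27 in Avil-ChR2 and 0.10 in ChR2-flfl pups. This difference in spread was not tested.

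The other AP-1 genes moved less in relation to their spread. Fosb was between 0.206 and 0.664 CPM in controls (median 0.49) and between 0.41 and 0.838 CPM in Avil-ChR2 cortices (median 0.544), with a log2 difference of 0.38 (95% interval -0.10 to 0.86). Fosb counts were low, and the run of lower pup numbers gave a difference of 0.04, the run of higher numbers 0.73. Junb was between 3.82 and 7.17 CPM in controls (median 5.32) and between 3.27 and 8.24 CPM in Avil-ChR2 cortices (median 6.05), and the Avil-ChR2 range enclosed the control range. The log2 difference of Junb was 0.13 (95% interval -0.22 to 0.49), with 0.29 in the lower and -0.02 in the higher pup numbers.

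Arc, which traffics AMPA receptors at the synapse, was between 4.14 and 5.81 CPM in controls (median 4.96) and between 4.45 and 7.55 CPM in Avil-ChR2 cortices (median 5.33). The 3 highest values, in Avil-ChR2 replicates 4, 7 and 8, were above all controls. The log2 difference was 0.19 (95% interval -0.03 to 0.40, two-sided exact permutation p = 0.112). Egr1, which regulates plasticity genes, was between 26.6 and 39.7 CPM in controls (median 35.5) and between 33.1 and 41.7 CPM in Avil-ChR2 cortices (median 37.4), with a log2 difference of 0.12 (95% interval -0.02 to 0.27). Here also 3 Avil-ChR2 pups were above all controls, and the lowest value was that of ChR2-flfl replicate 1. Egr2 was between 1.5 and 2.56 CPM in controls (median 1.86) and between 1.60 and 2.49 CPM in Avil-ChR2 cortices (median 2.06), with a log2 difference of 0.13 (95% interval -0.10 to 0.36).

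For the remaining genes the means of the genotypes were close. Npas4, which is induced by calcium entry in neurons, was between 10.2 and 13.5 CPM in controls (median 12.1) and between 10.3 and 13.5 CPM in Avil-ChR2 cortices (median 11.004), with a log2 difference of -0.03 (95% interval -0.17 to 0.11). Nr4a1 was between 23.1 and 28.3 CPM in controls (median 26.4) and between 23.7 and 31.5 CPM in Avil-ChR2 cortices (median 24.5), with a log2 difference of 0.0019 (95% interval -0.12 to 0.13). The nearly identical means of Nr4a1 thus came with a wider range in Avil-ChR2 pups. Ier2 was between 2.87 and 5.02 CPM in controls and between 2.64 and 4.85 CPM in Avil-ChR2 cortices, with a log2 difference of -0.04 (95% interval -0.30 to 0.21). Dusp1 was between 5.75 and 7.35 CPM in controls and between 6.09 and 7.52 CPM in Avil-ChR2 cortices, with a log2 difference of 0.03 (95% interval -0.10 to 0.16). Over the 10 genes adjusted p-values were at least 0.841 (limma). The intervals of Npas4, Nr4a1 and Dusp1 were narrower than those of the other genes, and those of Fosb and Junb were widest.

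**Figure D2:**
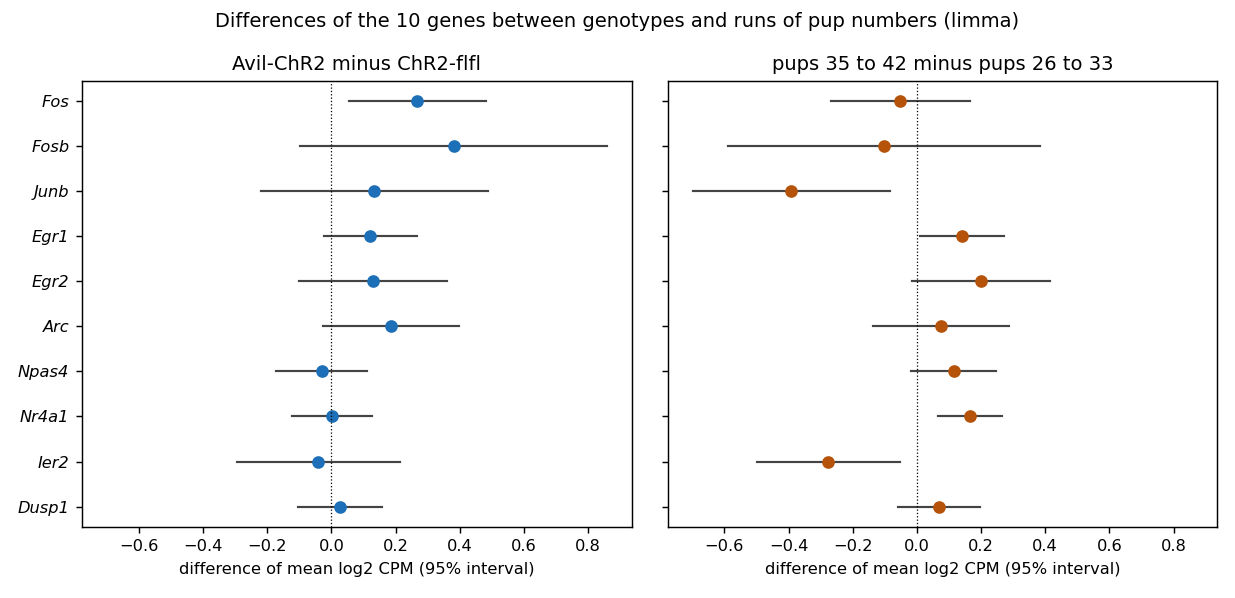
Differences of mean log2 CPM with 95% intervals from limma for the 10 genes (rows), between genotypes on the left and between runs of pup numbers on the right, on the same horizontal axis. Only the interval of Fos is clear of 0 on the left, and those of Junb, Egr1, Nr4a1 and Ier2 are clear of 0 on the right, all before adjustment over genes.

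Pups 35 to 42 differed from pups 26 to 33 in more genes than the genotypes did, with 26 of 21183 genes at an adjusted p under 0.05 in a limma model with genotype (0.123%). With a pup left out this count was between 7 (without Avil-ChR2 replicate 1) and 123 (without ChR2-flfl replicate 4). None of the 10 genes was among them, but 4 had an unadjusted p under 0.05, against 12.5% of all genes. The means of Junb and Ier2 were lower and those of Nr4a1 and Egr1 higher in pups 35 to 42. Junb was between 4.55 and 8.24 CPM in pups 26 to 33 and between 3.27 and 6.83 CPM in pups 35 to 42 (log2 difference -0.39, SE 0.15, limma adjusted p = 0.269). Ier2 was between 3.31 and 5.02 CPM and between 2.64 and 4.18 CPM, respectively, and 4 of the 8 pups 35 to 42 were below all pups 26 to 33 (log2 difference -0.28, limma adjusted p = 0.282). Nr4a1 was between 23.1 and 27.6 CPM and between 24.6 and 31.5 CPM (log2 difference 0.17, limma adjusted p = 0.159). Egr1 was between 26.6 and 38.0 CPM and between 31.0 and 41.7 CPM, and 6 of 8 pups 35 to 42 were above all pups 26 to 33 (log2 difference 0.14, limma adjusted p = 0.361). The runs overlapped for each of the 10 genes, and 0.142% of all genes did not overlap. Between genotypes all 10 genes overlapped likewise, against 0.0283% of all genes that did not. Between male and female pups 1 of the 10 genes had an unadjusted p under 0.05, against 4.46% of all genes. This was Nr4a1, which was higher by 0.12 on the log2 scale in males (limma adjusted p = 0.988). The comparison counted Avil-ChR2 replicate 4 (Nr4a1 at 24.2 CPM) as female, as in the labels. It was not repeated with the study's sample list, where this pup is male. The labels give 9 female and 7 male pups, and males are more frequent in pups 35 to 42 than in pups 26 to 33. The run and sex differences of Nr4a1 therefore cannot be fully told apart. With sex as a covariate, 16 genes differed between runs at an adjusted p under 0.05 (limma). No member had an unadjusted p under 0.05 for an interaction of genotype with run, where 3.04% of all genes did, or of genotype with sex, where 4.31% did.

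The genes differed in how much they varied among pups of a genotype. The SD of log2 values within genotype was highest for Fosb (0.48), Junb (0.39) and Ier2 (0.26) and lowest for Nr4a1 (0.13) and Dusp1 (0.12). The median over all 21183 genes was 0.14, and 7 of the 10 genes were above it. The SD expected from counting reads alone was 0.31 for Fosb, 0.15 for Egr2, 0.13 for Fos and 0.08 for Dusp1, so that the observed SD of these genes was 1.53, 1.40, 1.51 and 1.47 times the counting error. For Egr1 and Junb it was 4.46 and 4.27 times the counting error, and for Nr4a1 3.16 times.

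In the measured values, the 10 genes did not vary as a single block 2 days after the last light exposure. Pearson's r of genotype-centred log2 values was calculated for all 45 pairs over 16 pups. The median r was 0.09, with a range from -0.44 (Egr2 and Ier2) to 0.75 (Junb and Ier2), and 16 of the 45 pairs had a negative r. The median over all gene pairs was -0.0018. An r of at least 0.5 was reached by 4 of the 45 pairs, Junb and Ier2, Npas4 and Nr4a1, Egr1 and Arc, and Egr1 and Dusp1, against 5.23% of all gene pairs. Among genes of at least 1 CPM on average (mean log2 not below 0) it was 7.11% of pairs. The first principal component of the 10 genes held 26.5% of their variance. This share was not compared with that of other sets of 10 genes and is a description only. Fos had an r of 0.12 with Fosb and of -0.04 with Junb, the other AP-1 genes. Counting error lowers r. The SD of Egr2, Dusp1, Fos and Fosb was only 1.40 to 1.53 times that error, so that a low r of these genes does not show that they varied apart.

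**Figure D3:**
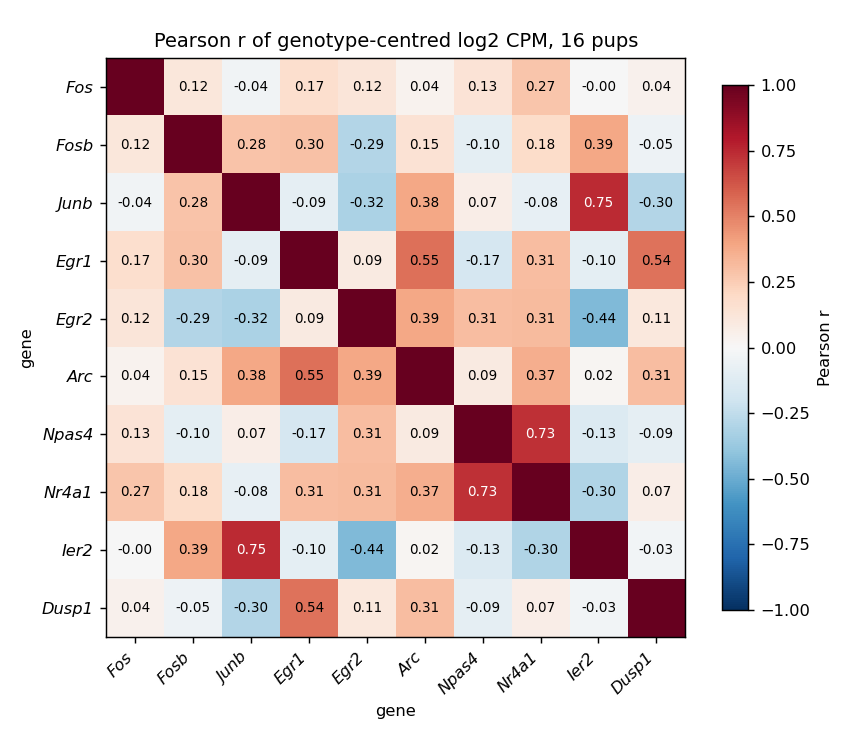
Pearson's r of genotype-centred log2 CPM over 16 pups for each pair of genes, as a colour from blue (-1) to red (1) with the value printed in each cell. Of 45 pairs, 4 are at 0.5 or above, and the lowest is -0.44.

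Npas4 and Nr4a1 varied together in each subset of pups that was looked at. Over 16 pups r was 0.73 (permutation p = 0.00204) and Spearman's rho was 0.69 (permutation p = 0.00519), both two-sided, unadjusted and out of 45 pairs computed. Without the 2 pups farthest from the median of Npas4, r was 0.61. It was 0.71 among ChR2-flfl and 0.77 among Avil-ChR2 pups, and 0.65 and 0.85 in pups 26 to 33 and 35 to 42. Both genes were highest among Avil-ChR2 pups in replicate 8 (13.5 and 31.5 CPM), followed by replicate 7 (12.5 and 29.6 CPM). Their deposited entries are on chromosomes 19 and 15.

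Junb and Ier2 had an r of 0.75 (permutation p = 0.00175) and a rho of 0.69 (permutation p = 0.00604), and r was 0.57 without the 2 pups farthest from the median of Junb. It was 0.88 among ChR2-flfl and 0.67 among Avil-ChR2 pups, and it was 0.46 and 0.77 in the lower and higher pup numbers. The genes lie 314056 bp apart on chromosome 8. Both followed the first principal component of all genes, which held 23.1% of the variance of 15137 genes, with an r of 0.89 for Junb and 0.68 for Ier2. With this component removed, their r was 0.42, whereas that of Npas4 and Nr4a1 was 0.73. With the component removed 4 of the 45 pairs were at 0.5 or above, against 4.59% of all gene pairs.

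**Figure D4:**
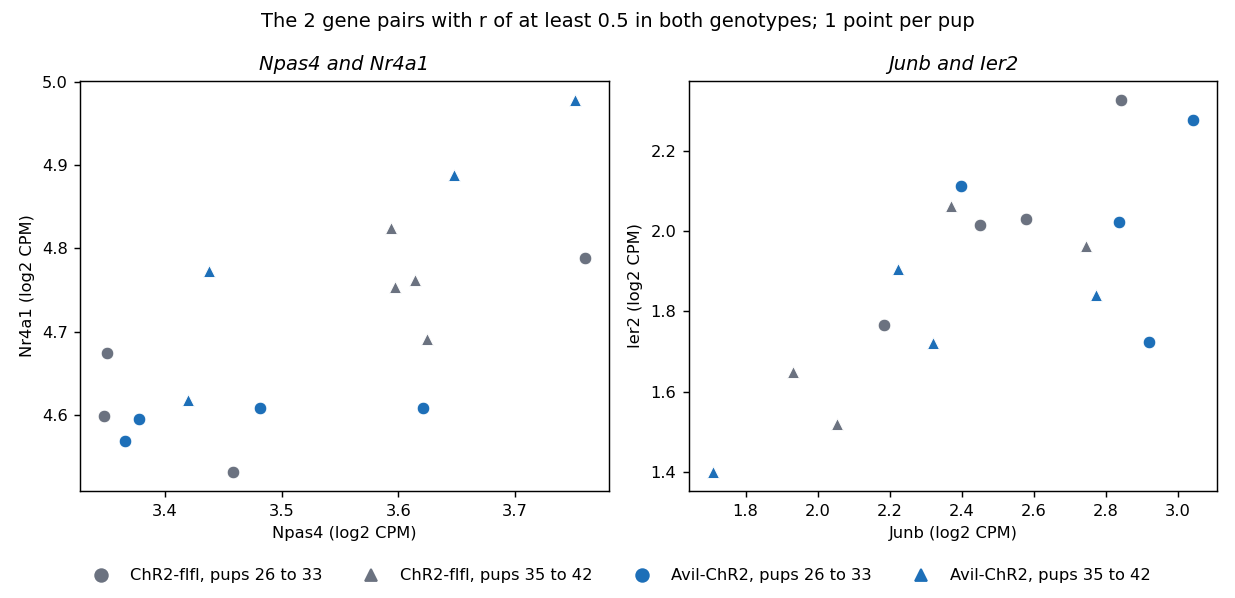
Log2 CPM of Npas4 against Nr4a1 (left) and of Junb against Ier2 (right), 1 point per pup, coloured by genotype, with circles for pups 26 to 33 and triangles for pups 35 to 42. Values rise together in both panels, with r of 0.73 and 0.75 after centring by genotype.

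Egr1 and Arc had an r of 0.55 (permutation p = 0.0171) and a rho of 0.53 (permutation p = 0.0369), with 0.46 without the 2 pups farthest from the median of Egr1. It was 0.74 among ChR2-flfl and 0.47 among Avil-ChR2 pups, and 0.61 and 0.36 in the runs. Egr1 and Dusp1 had an r of 0.54 (permutation p = 0.051) and a rho of 0.42 (permutation p = 0.123). It was 0.50 among ChR2-flfl and 0.64 among Avil-ChR2 pups, and 0.71 and -0.08 in the runs. Without the 2 pups farthest from the median of Egr1, r was 0.22, so that the relation of Egr1 and Dusp1 rested on those pups.

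The pairs were also calculated within each genotype. Among ChR2-flfl pups 9 of 45 pairs had an r of at least 0.5 (12.2% of all gene pairs did), and the median was -0.01. Among Avil-ChR2 pups 11 pairs had an r of at least 0.5 (12.1% of all gene pairs), and the median was 0.23. Both genotypes shared 2 of these pairs, Junb and Ier2, and Npas4 and Nr4a1, which are 22.2% of the 9 and 18.2% of the 11, and 2.4% of all gene pairs passed in both. These shares were near those over all gene pairs, of which 19.6% of the pairs passing in ChR2-flfl and 19.9% of those passing in Avil-ChR2 pups also passed in the other genotype. The r had opposite signs in the genotypes for 27 of the 45 pairs, against 45.8% of all gene pairs. The widest gaps were those of Fosb, which had an r of 0.87 with Junb and 0.90 with Ier2 among ChR2-flfl pups and of -0.41 and -0.43 among Avil-ChR2 pups. In the other direction the gap was widest for Npas4 and Dusp1, with an r of 0.66 among Avil-ChR2 and of -0.60 among ChR2-flfl pups. These differences between genotypes were not tested, and each r rests on 8 pups. In pups 26 to 33, 7 pairs were at 0.5 or above (14.5% of all gene pairs), and in pups 35 to 42 it was 14 pairs (14.4%). With the values centred by genotype and run, 5 pairs were at 0.5 or above (6.4% of all gene pairs), and the median r was 0.15.

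**Figure D5:**
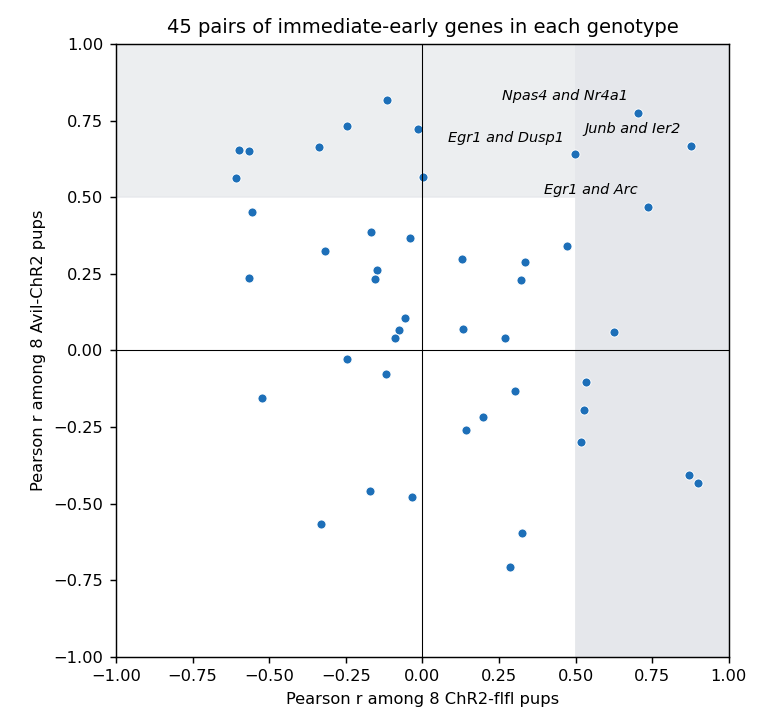
Pearson's r of each of the 45 gene pairs among 8 ChR2-flfl pups (horizontal) and among 8 Avil-ChR2 pups (vertical), with shading at 0.5 and above. The 4 pairs with r of at least 0.5 over 16 pups are named, and 2 of them lie in both shaded bands.

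No pup was high or low in all 10 genes. Avil-ChR2 replicate 8 (female, pup 40) was above the mean of its genotype in 9 of the 10 genes and had the highest average, 1.04 SD above its genotype. ChR2-flfl replicate 8 was above in 8 of 10. ChR2-flfl replicate 4 and Avil-ChR2 replicates 1 and 2 were above in 2 of 10. Without Avil-ChR2 replicate 8 the median r of the 45 pairs was 0.02. The genes whose pattern over 16 pups was most like the average of the 10 genes were Gas6 (r = 0.83), Selenbp1 (0.82), Pdgfb (0.82), Hcrtr1 (0.81), H2-D1 (0.80), Rhbdd2 (0.80), Gstm7 (0.80), Fth1 (0.80), Wsb2 (0.79) and Spock2 (0.79), given as a description. Of the 15128 other genes whose mean log2 value was not below 0, 6.28% had an r of at least 0.5 with this average.

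Further activity-regulated genes were read from a list of 45, of which 44 passed the filter. None of the 44 differed between genotypes after adjustment (limma), Avil-ChR2 means were higher for 26 and lower for 18, and the median log2 difference was 0.02, with 0.0020 over all genes. Egr4, a further zinc finger of the Egr family, had the largest difference (0.45 on the log2 scale, limma adjusted p = 0.846) and was the only gene of the list with an unadjusted p under 0.05. It was between 1.89 and 4.64 CPM in controls and between 3.21 and 5.39 CPM in Avil-ChR2 cortices. Atf3, Ier5l and Vgf followed with log2 differences of 0.23, 0.20 and 0.18. Between runs of pup numbers 1 of the 44 passed, Nr4a2, a paralog of Nr4a1, which is named because of this result. Nr4a2 was between 6.91 and 17.7 CPM in pups 26 to 33 and between 1.67 and 10.1 CPM in pups 35 to 42 (log2 difference -1.54, limma adjusted p = 0.0449). This call held in 4 of the 16 fits that left out a pup, with adjusted p between 0.0071 and 0.118 (limma). The mean of the list correlated with Junb at r = 0.73 (permutation p = 0.00101) and rho = 0.80 (permutation p = 0.00039), and with r = 0.78 without the 2 pups farthest from the median of the list. With Ier2 it correlated at r = 0.69 (permutation p = 0.00465) and rho = 0.66 (permutation p = 0.00873), and with r = 0.76 without those pups. With the other 8 genes r was between -0.19 (Egr2) and 0.48 (Arc), and it was -0.08 with Npas4 and -0.10 with Nr4a1. The mean of the list itself had an r of 0.73 with the first principal component of all genes, which Junb and Ier2 followed as well.

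Among the transcription factors and kinases upstream of immediate-early genes, 25 of 27 listed genes passed the filter. None of the 25 differed between genotypes after adjustment (limma), with 11 means above and 14 below controls and a median log2 difference of -0.02. The largest were those of the CREB coactivator Crebbp (-0.15), the kinase Rps6ka1 (0.12), the kinase Rps6ka5 (-0.10) and Camk2a (0.10). The same genes can be induced by handling, warmth or low oxygen, and lists for these were read alongside. Of 10 glucocorticoid-induced genes (2 of them, Sgk1 and Per1, also in the activity list) 3 had a higher and 7 a lower mean in Avil-ChR2 pups. It was 7 and 1 of 8 heat shock genes, and 7 and 3 of 10 hypoxia-induced genes. None of these genes had an adjusted p under 0.05 (limma). The mean of the heat shock genes correlated with Ier2 at r = 0.69 (permutation p = 0.00416, rho = 0.62, permutation p = 0.0137), which was 0.51 without the 2 pups farthest from the median of the list, and with Nr4a1 at r = -0.59 (permutation p = 0.0103, rho = -0.59, permutation p = 0.0183), which was -0.69 without those pups.

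No gene of the cell type marker lists differed between genotypes or between runs at an adjusted p under 0.05 (limma), but the means of some lists correlated with some of the 10 genes among pups. Correlations with the mean of each of 18 lists were calculated for the 10 genes, 180 in all, of which 23 had an unadjusted permutation p under 0.05. Egr1 held 6 of these, Ier2 5, Junb, Nr4a1 and Npas4 3 each, Arc 2 and Fos 1, and Fosb, Egr2 and Dusp1 held 0. The share of such relations over all genes was not calculated, so that these counts are a description only. Microglia markers (5 passed, P2ry12 without reads) correlated with Arc at r = 0.70 (permutation p = 0.00067, rho = 0.74, permutation p = 0.00129), with r of 0.93 among ChR2-flfl and 0.62 among Avil-ChR2 pups and 0.64 without the 2 pups farthest from the median. They correlated with Egr1 at r = 0.75 (permutation p = 0.00299, rho = 0.65, permutation p = 0.0115), which was 0.53 without those 2 pups. The 5 microglia markers summed to between 237 and 320 CPM in controls and between 233 and 294 CPM in Avil-ChR2 cortices. Astrocyte markers correlated with Egr1 at r = 0.67 (permutation p = 0.0129, rho = 0.54, permutation p = 0.0439), which was 0.64 without the 2 pups farthest from the median, and with Arc at r = 0.58 (permutation p = 0.00944, rho = 0.57, permutation p = 0.0209), which was 0.53 without them. The other lists with Egr1 were endothelial (r = 0.58), pericyte and smooth muscle (0.57), meninges (0.59) and excitatory neuron markers (-0.55). Fos, which had the lowest p between genotypes, correlated with pericyte and smooth muscle markers at r = 0.59 (permutation p = 0.0355, rho = 0.50, permutation p = 0.0774), with 0.02 among ChR2-flfl and 0.77 among Avil-ChR2 pups and 0.35 without the 2 pups farthest from the median. With endothelial markers the r of Fos was 0.57 (permutation p = 0.0511, rho = 0.40, permutation p = 0.17), with -0.25 and 0.81 in the genotypes. The 4 pericyte and smooth muscle markers summed to between 96.6 and 120 CPM in controls and between 97.2 and 125 CPM in Avil-ChR2 cortices, and the 6 endothelial markers to between 159 and 176 CPM and between 158 and 186 CPM. Npas4 had an r of -0.52 with neuron, -0.51 with interneuron and -0.52 with choroid plexus markers. The choroid plexus list rested on 3 genes of low level. They summed to between 1.48 and 2.34 CPM in controls and between 1.41 and 3.15 CPM in Avil-ChR2 cortices.

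Some marker lists also moved with the run of pup numbers. All 6 markers of the oligodendrocyte lineage had a lower mean in pups 35 to 42, where they summed to between 265 and 305 CPM, than in pups 26 to 33, with 294 to 377 CPM, and 0 of 6 passed the test (limma). They correlated with Ier2 at r = 0.75 (permutation p = 0.00129, rho = 0.64, permutation p = 0.0118), with 0.75 and 0.44 in the runs. They correlated with Junb at r = 0.64 (permutation p = 0.00856, rho = 0.64, permutation p = 0.0125), with 0.83 and 0.07 in the runs. Without the 2 pups farthest from the median of these markers the r was 0.56 for Ier2 and 0.48 for Junb. The 4 striatum markers also all had a lower mean in pups 35 to 42, with sums of 25.9 to 44.7 CPM against 37.3 to 56.0 CPM, and 0 of 4 passed the test (limma). So did the 4 blood markers, with 227 to 294 CPM against 257 to 465 CPM and 0 of 4 past the test (limma), and these correlated with Ier2 at r = 0.58 (permutation p = 0.021, rho = 0.77, permutation p = 0.00137), which was 0.69 without the 2 pups farthest from the median. The striatum markers correlated with Junb (r = 0.58), Ier2 (0.56) and Nr4a1 (-0.56). The oligodendrocyte lineage markers correlated with Nr4a1 at r = -0.58. All of these relations had an unadjusted permutation p under 0.05. Their r was centred by genotype and not by run, and the permutations moved pups across runs. A difference between runs can therefore enter these r and p, and its part was not tested. The 4 meninges markers all had a higher mean in pups 35 to 42, with 147 to 252 CPM against 127 to 258 CPM, and 0 of 4 passed the test (limma). The part of tissue composition and of dissection in the difference of Fos, in the differences between runs and in the pairs was not tested.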

How the data were processed

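The authors aligned reads of at least 50 bp from stranded mRNA libraries to mm10 (GRCm38), counted reads per gene and scaled them by TMM in edgeR. The deposited values are CPM per pup, not pooled. Strand use in counting is not given in the sources used here. In every pup 100% of values of up to 20000 reads were whole multiples of 1 read to within 0.05, giving a depth of 30549126 to 48711134 reads. The study's methods name no molecular identifiers, so that reads copied from 1 molecule cannot be told apart. The counting error given here is therefore a lower limit. Depth sets counting error only, and the p-values of differences weigh them against the spread between these pups.

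Groups are those of the labels. CPM were log2 transformed without a pseudocount, and missing values or values below -5 were set to -5 (4432 of 338928 values). Genes above -5 in at least 12 of 16 pups were compared by limma 3.58.1 (R 4.3.3, intensity trend) with Benjamini-Hochberg adjustment over 21183 genes. Exact permutation tests of single genes were two-sided, over all divisions into 8 and 8 pups. Correlations (Python 3.11.15, scipy 1.17.1) used genotype-centred values and 100000 permutations of pups within genotype, and their p-values were not adjusted. Upstream sequences are from RefSeq, gene structures from GENCODE M21. Scripts were tested on simulated data. The 10 genes and all lists were chosen with earlier results of these data known. Also named were the 4 genes of a list with the largest genotype difference, all genes of lists of up to 6, and the 10 genes most like the average; others were named after their values were seen. Alternatives are given at the end.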

Additional observations from a re-analysis of the deposited data

Results flagged for a closer look

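No value of the 10 genes stood apart from its group. In each of the 20 groups of 8 pups (10 genes in 2 genotypes), the gap of the highest or lowest log2 value to its neighbour was below 0.526 of the range of the group, the limit of Dixon's test at 95%. The effect of genotype on the 10 genes did not differ between runs of pup numbers or between sexes at an adjusted p under 0.05 (limma), and 0 of 21183 genes did, with 643 genes at an unadjusted p under 0.05 for the run and 912 for sex.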

How the results depend on the processing

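In limma with alternative filters, pseudocount, scalings, covariates, runs or left-out pups, 0 of the 10 genes passed between genotypes or between runs, with adjusted p of at least 0.554 and 0.102. Of 279 alternative genotype differences of single genes 265 kept their sign. The difference of Nr4a1 turned to -0.00031 with quantile normalization and -0.0533 in pups 26 to 33, that of Dusp1 to -0.0383 in pups 26 to 33 and that of Junb to -0.0183 in pups 35 to 42. With 1 pup left out, it was between -0.0373 and 0.0213 for Nr4a1, -0.0069 and 0.0532 for Dusp1, -0.0984 and 0.0271 for Ier2 and -0.0643 and 0.00057 for Npas4. The difference between runs turned for Fosb (-0.20 to 0.0525) and Fos (-0.11 to 0.0088) with a pup left out. Adjusted p of Fos were between 0.554 and 1. The count of genes differing between genotypes was 1 with median centring, in either run alone and with voom on the reads, and 1 to 2 with a pup left out, and 3 with the run of pup numbers as a covariate. With the replicate number as a block it was 1, and the block changed no call of the 10 genes. Same-numbered pups correlated between -0.07 and 0.13 and 1 of 8 correlated best with its own number. Genes differing between runs fell to 16 with sex as a covariate and were 7 to 123 with a pup left out, the highest without ChR2-flfl replicate 4 (123) and the lowest without Avil-ChR2 replicate 1 (7). The median r of the 45 pairs was 0.23 in Avil-ChR2 pups, 0.26 in pups 35 to 42 and 0.02 to 0.15 with a pup left out. Pairs at 0.5 or above were 9 in ChR2-flfl pups, 11 in Avil-ChR2 pups, 7 in pups 26 to 33, 14 in pups 35 to 42 and 3 to 6 with a pup left out. Voom, removal of the first principal component and, between runs, median centring and the filter on mean log2 were chosen after seeing the data. The planned edgeR and DESeq2 fits were not run. Counting error limits Egr2, Dusp1, Fos and Fosb most.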
